A study of Mus musculus with 6 samples.

Results

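Reelin and the chemokine Cxcl12 are secreted signals that steer dentate precursors and neurons as the hippocampus forms. The 7 genes described here are reelin (Reln), its receptors Vldlr and Lrp8, its intracellular adaptor Dab1, Cxcl12 and its receptors Cxcr4 and Ackr3. They were chosen by symbol from a deposited expression table of 35274 genes, and each matched 1 row. The table holds TPM, in which reads are divided by transcript length and every library is brought to the same total, so levels of different genes can be set side by side.

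The study compared dentate neuroepithelium, dissected from mice at embryonic day 14, across 3 labelled genotypes with 2 RNA sequencing libraries each. The homozygous group is SOX11f/f, labelled homodeficient, and the heterozygous group is SOX11f/+, labelled haplodeficient. The wild type group is labelled as control. The floxed gene, Sox11, encodes a SoxC transcription factor of newborn neurons. No Cre driver is named in the labels, and nothing there says that libraries came from separate embryos or litters, so the spread behind each p-value is that between libraries and may be technical.

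Reelin is a large extracellular glycoprotein made in the embryonic hippocampus mainly by Cajal-Retzius cells of the marginal zone. It binds VLDLR and LRP8 (also called ApoER2), which leads to phosphorylation of DAB1 by Src family kinases. Loss of reelin, of DAB1 or of both receptors disorders the granule cell layer in mice. CXCL12 is secreted by the meninges, by Cajal-Retzius cells and by vessels, and signals through the G protein-coupled receptor CXCR4. ACKR3 binds the same chemokine, does not couple to G proteins in the usual way, and removes CXCL12 from the surroundings.

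Sox11 itself stood at 5.23 and 5.06 TPM in homozygous libraries, at 56.1 and 50.1 TPM in heterozygous libraries and at 192 and 130 TPM in wild type libraries, in the order of the labels. Defining genes of the tissue were present in every library. The 12 radial glia markers summed to 3745 and 3837 TPM in homozygous, 4313 and 3929 TPM in heterozygous, and 3582 and 3482 TPM in wild type libraries. This sum was higher in all 4 floxed libraries than in both wild type ones. So were 3 of the 12 markers, beside 13.3% of all tested genes, and 1 of the 12 was lower in all 4 floxed libraries. Granule lineage markers, also 12 in number, summed to 1272 and 1233 TPM in homozygous, 1423 and 1458 TPM in heterozygous, and 2487 and 1827 TPM in wild type libraries, and 8 of the 12 lay lower in all 4 floxed libraries than in both wild type ones, as did 21% of all tested genes. Of the granule lineage markers, Calb2 is also in the Cajal-Retzius list and Neurod1 in the intermediate progenitor list. Genes of mature brain were also present, Gfap of astrocytes lying between 268 and 576 TPM. The 12 mature brain markers summed to 1507 and 2364 TPM in homozygous, 1102 and 1692 TPM in heterozygous, and 1035 and 1484 TPM in wild type libraries. Limma called 0 of them, but 11 were higher in homozygous and 7 in heterozygous than in wild type libraries. The source of this RNA in tissue labelled as embryonic day 14 was not tested. Wild type replicate 1 stood apart in several neuronal lists, with 901 TPM summed over 12 Cajal-Retzius markers against 560 TPM in wild type replicate 2 and 375 to 456 TPM in the 4 floxed libraries. Ttr, the main product of choroid plexus, was at 6421 TPM in homozygous replicate 1 and 11259 TPM in heterozygous replicate 1. It was at 184 TPM in homozygous replicate 2, 4.44 TPM in heterozygous replicate 2, and 3.07 and 2.04 TPM in wild type libraries. All 10 choroid plexus markers were higher without overlap for homozygous against wild type, beside 23.6% of all tested genes. For heterozygous against wild type 5 were, beside 17.1%. Limma called 0 of the 10. Microglial markers, 12 in number, summed to 491 and 504 TPM in homozygous, 620 and 399 TPM in heterozygous, and 250 and 300.5 TPM in wild type libraries.

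All 7 genes passed the filter, a mean level of 1 TPM or more. Reln was the most abundant of them in every genotype, above 95.9% of the 14518 tested genes in homozygous, 95.3% in heterozygous and 97.9% in wild type libraries. Below it came Cxcl12, Cxcr4, Lrp8, Dab1, Vldlr and Ackr3, in this order of means in each genotype. Neighbours in that order were not all separated. Cxcr4 and Lrp8 overlapped in all 3 genotypes, and Cxcl12 and Cxcr4 overlapped in homozygous and wild type libraries. Ackr3 was the least abundant, above 21.9% of tested genes in homozygous, 23.2% in heterozygous and 19.4% in wild type libraries.

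**Figure D1:**
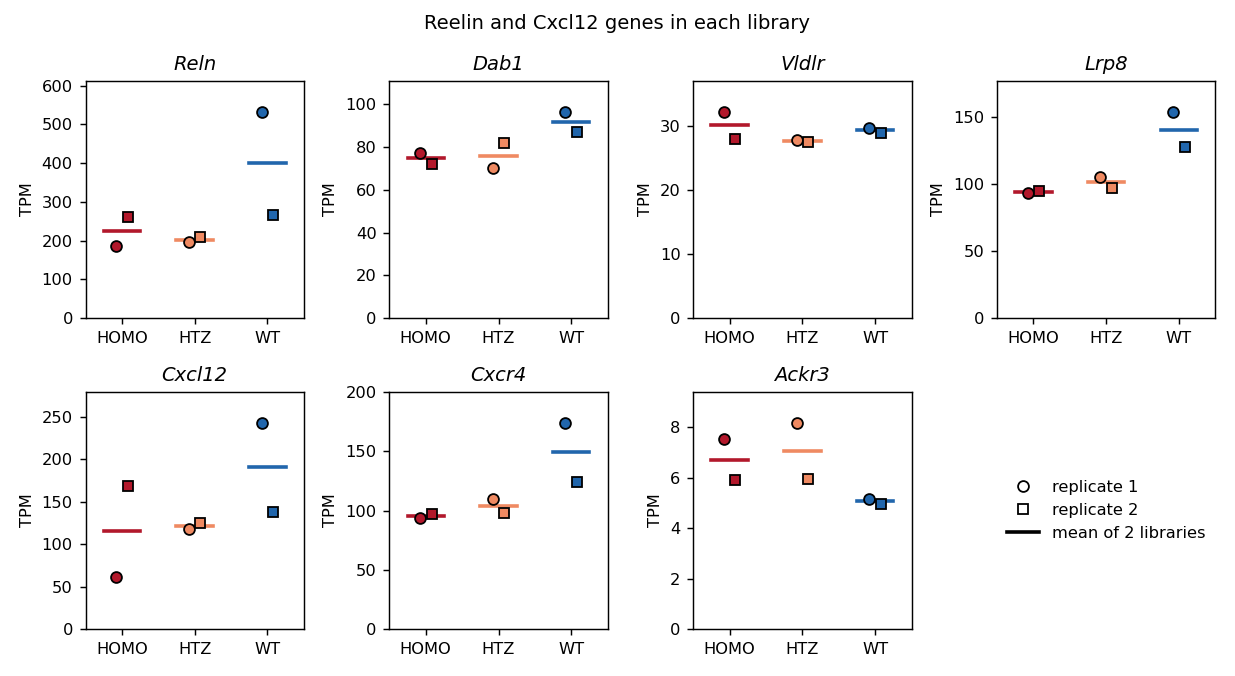
TPM (vertical axes, linear and starting at 0) of each of the 7 genes in homozygous (HOMO), heterozygous (HTZ) and wild type (WT) libraries, with a circle for replicate 1, a square for replicate 2 and a bar at the mean of the 2 libraries. Lrp8 and Cxcr4 lie lower in all 4 floxed libraries than in both wild type libraries, Vldlr stays between 27.5 and 32.3 TPM, and Ackr3 lies higher in the floxed libraries.

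Of the 7 genes, 0 passed the test in any comparison with limma, at an adjusted p of 0.05 over all 14518 genes. That test called few genes anywhere: 0.0413% for homozygous against wild type, 0.0344% for heterozygous against wild type, 0.0138% for homozygous against heterozygous and 0.0138% for the trend per floxed allele. Without adjustment, 4 of the 7 genes had p under 0.05 for homozygous against wild type, where 18.1% of all tested genes did. For heterozygous against wild type it was also 4 of 7, against 14.1% of all genes, and for the trend 3 of 7 against 19% of all genes. Between the floxed genotypes it was 0 of 7, against 2.05% of all genes. The counts against wild type include values near 0.05. For homozygous against wild type, the limma p was 0.0458 for Reln and 0.0396 for Dab1. After rescaling by a trimmed mean of M values, these limma p were 0.0518 and 0.0739. For heterozygous against wild type, the limma p of Dab1 was 0.0498, and 0.109 after that rescaling. The smallest two-sided p of an exact permutation test is 0.33 for 2 against 2 libraries and 0.067 for 4 against 2, so no single gene could pass by that route.

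The direction of the differences was shared by most of the genes. For homozygous against wild type 5 of 7 differences were negative, with a median of -0.57 on the log2(TPM + 1) scale, beside a median of -0.04 and 55.2% negative over all tested genes. For heterozygous against wild type 6 of 7 were negative, with a median of -0.46, beside -0.06 and 59.8% negative over all genes. Both comparisons use the same wild type libraries. Homozygous against heterozygous libraries gave a median of -0.06, beside 0.01 over all genes.

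The libraries of homozygous and wild type tissue did not overlap for Reln, Dab1, Lrp8 and Cxcr4, all lower in homozygous, where 30.7% of tested genes were lower without overlap. Ackr3 was higher without overlap, as were 23.6% of tested genes. In heterozygous libraries 6 of the 7 genes lay below both wild type libraries, where 28.9% of tested genes did, and Ackr3 alone lay above them, where 17.1% did. All 4 floxed libraries lay below both wild type libraries for 4 genes, Reln, Dab1, Lrp8 and Cxcr4, against 21% of tested genes, and above them for Ackr3, against 13.3%. Between the floxed genotypes, Lrp8 and Cxcr4 were lower in homozygous libraries without overlap (13.7% of tested genes) and Vldlr was higher (15.3%).

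**Figure D2:**
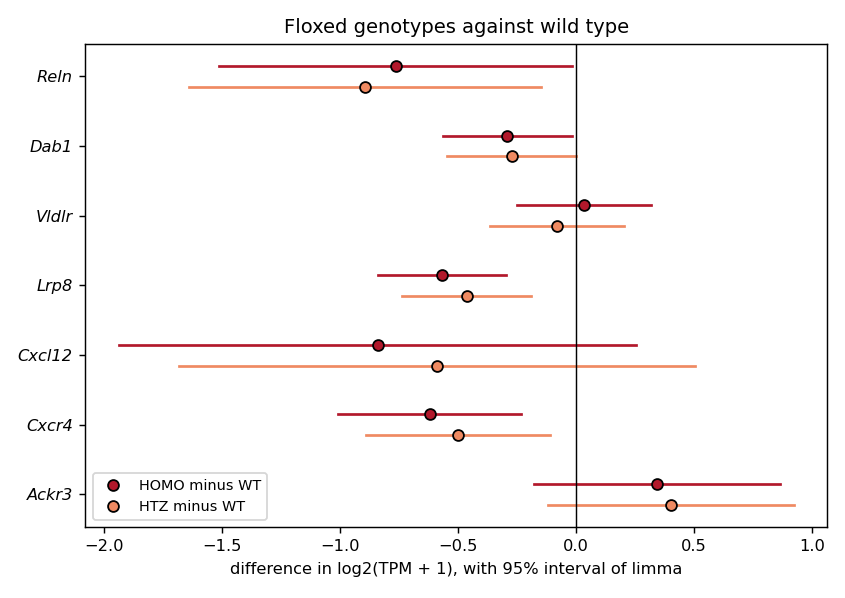
Difference in log2(TPM + 1) between homozygous and wild type (HOMO minus WT, upper of each pair) and between heterozygous and wild type libraries (HTZ minus WT, lower of each pair), with limma's 95% intervals for single genes, not adjusted for the number of genes. Intervals of Lrp8 and Cxcr4 lie below 0 in both comparisons, those of Cxcl12 and Ackr3 include 0 in both, and none of the differences passed after adjustment.

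The letters before the start sites of 4 of the genes are shown because Sox11 is a DNA-binding factor and because their levels differed in direction: Cxcr4 and Reln, lower in floxed libraries, Vldlr, nearly level, and Ackr3, higher. They are the 250 bases before the start in RefSeq's table on GRCm38.p6, 5′ to 3′ on the gene's strand. Capitals mark ACAAAG or ACAATG on either strand, words of the kind that SOX proteins bind, with no overlap between matches.
Cxcr4, chr1:128592300-128592549, minus strand: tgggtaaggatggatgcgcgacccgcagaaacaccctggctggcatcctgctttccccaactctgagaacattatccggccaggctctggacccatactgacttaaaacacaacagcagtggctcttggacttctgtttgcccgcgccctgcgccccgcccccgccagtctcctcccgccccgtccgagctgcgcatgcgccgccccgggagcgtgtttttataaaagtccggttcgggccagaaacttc
Reln, chr5:22344706-22344955, minus strand: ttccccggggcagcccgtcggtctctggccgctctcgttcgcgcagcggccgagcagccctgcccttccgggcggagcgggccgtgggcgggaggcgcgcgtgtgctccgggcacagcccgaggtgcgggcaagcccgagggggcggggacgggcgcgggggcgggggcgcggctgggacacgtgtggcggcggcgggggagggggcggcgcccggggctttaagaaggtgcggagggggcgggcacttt
Vldlr, chr19:27216234-27216483, plus strand: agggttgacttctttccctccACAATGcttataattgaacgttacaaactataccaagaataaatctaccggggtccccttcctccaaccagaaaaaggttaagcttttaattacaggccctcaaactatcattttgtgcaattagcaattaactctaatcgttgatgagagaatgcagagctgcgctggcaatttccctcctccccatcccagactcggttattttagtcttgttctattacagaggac
Ackr3, chr1:90203730-90203979, plus strand: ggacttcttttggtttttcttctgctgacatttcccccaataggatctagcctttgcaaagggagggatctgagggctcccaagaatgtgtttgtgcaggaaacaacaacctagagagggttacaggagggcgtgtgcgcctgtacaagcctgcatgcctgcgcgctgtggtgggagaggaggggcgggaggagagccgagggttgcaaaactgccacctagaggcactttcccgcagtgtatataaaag
Of these 4, Vldlr alone holds a match, ACAATG starting 229 bases before the start. Its window has the lowest share of G and C, 41.6%, against 61.2% for Cxcr4, 80.0% for Reln and 54.0% for Ackr3. The table lists 11 starts for the 7 genes, and 3 of them hold a match, 1 of Vldlr and 2 of Lrp8, where 25.2% of all 32851 windows of this length do. Lrp8, also lower in floxed libraries, is not among the 4 genes printed, and a further listed start of Vldlr holds no match. A match is a description of letters and not of binding, and no match says only that these letters are not in this window.

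On the reelin side, the ligand came first in level. Reln (ENSMUSG00000042453.14) is a protein-coding gene on the minus strand of chromosome 5, chr5:21884454-22344702 on GRCm38. It stood at 187 and 262 TPM in homozygous libraries, at 197 and 208 TPM in heterozygous libraries and at 532 and 267 TPM in wild type libraries. The floxed libraries were all below both wild type ones, but homozygous replicate 2 lay just below wild type replicate 2, and wild type replicate 1 stood far above the rest. The difference was -0.76 for homozygous (SE 0.31, limma adjusted p = 0.267) and -0.89 for heterozygous against wild type (SE 0.31, limma adjusted p = 0.317). Without wild type replicate 1 these were -0.27 and -0.40, and without wild type replicate 2 they were -1.26 and -1.39. Reads of a Reln antisense gene, Gm10475, share 246 exonic bases with Reln in GENCODE and cannot be told apart from Reln reads unless the counting used strand, which is not given in the sources used here.

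The summed level of markers of the cells that make reelin was highest in the wild type libraries as well. Cajal-Retzius markers summed to 375 and 453.5 TPM in homozygous, 445 and 456 TPM in heterozygous, and 901 and 560 TPM in wild type libraries. Of the 12 markers, 5 lay below both wild type libraries in all 4 floxed ones, where 21% of all tested genes did. None was at 0 in every library, and 11 were tested, with 0 called by limma and a smallest limma adjusted p of 0.113 for homozygous against wild type. Calb2, the calcium-binding protein calretinin, was the most abundant, at 179 and 213 TPM in homozygous, 217 and 248 TPM in heterozygous, and 454 and 300.1 TPM in wild type libraries. Calb2, also in the granule lineage list, is thus a large part of the marker sum. Reln divided by the marker sum ranged from 0.442 to 0.59 over the 6 libraries. This ratio was 0.498 and 0.578 in homozygous, 0.442 and 0.457 in heterozygous, and 0.59 and 0.477 in wild type libraries. Homozygous and wild type libraries overlapped in it, and both heterozygous libraries lay below all others, a difference that was not tested. In bulk tissue, fewer cells of a type and less RNA per cell cannot be told apart. GABAergic markers, which label interneurons that also make reelin later in life, summed to 571 and 397 TPM in homozygous, 548 and 628 TPM in heterozygous, and 492 and 552 TPM in wild type libraries. The part of either cell type in the Reln difference was not tested.

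**Figure D3:**
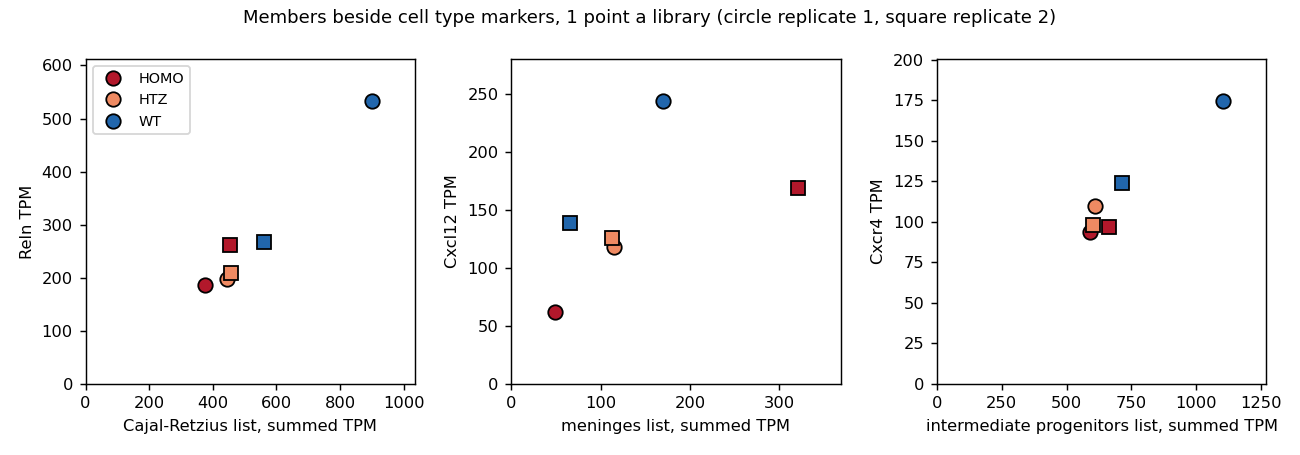
Level of Reln, Cxcl12 and Cxcr4 (TPM, vertical axes) against the summed TPM of the Cajal-Retzius, meninges and intermediate progenitor lists (horizontal axes), 1 point per library, coloured by genotype. Wild type replicate 1 has the highest Reln and Cxcr4 and the highest marker sum beside each, while homozygous replicate 2 has the highest meninges sum, 321 TPM, and the second level of Cxcl12, 169 TPM.

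Of the receptors of reelin, Lrp8 was lower in floxed libraries and Vldlr was nearly level, a difference between genes that was not tested. Lrp8 (ENSMUSG00000028613.14, chr4:107802261-107876840, plus strand) stood at 93.8 and 94.8 TPM in homozygous libraries, at 105 and 97.6 TPM in heterozygous libraries and at 154 and 128 TPM in wild type libraries. The 3 genotypes did not overlap, homozygous being lowest and wild type highest. The step between the floxed genotypes was small, 94.8 TPM in homozygous replicate 2 against 97.6 TPM in heterozygous replicate 2. The share of all tested genes with such an order of 3 genotypes was not counted. Of the 7 genes Lrp8 had the smallest p, with a difference of -0.57 for homozygous against wild type (SE 0.11, 95% interval -0.84 to -0.30, limma adjusted p = 0.101). For heterozygous against wild type the difference was -0.46 (SE 0.11, limma adjusted p = 0.24), and the trend was -0.28 per floxed allele (SE 0.07, limma adjusted p = 0.124). Without wild type replicate 1 the differences were -0.43 for homozygous and -0.33 for heterozygous, and without wild type replicate 2 they were -0.70 and -0.60. The granule lineage sum given above also separated floxed from wild type libraries, and its part in the Lrp8 and Dab1 values was not tested.

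Vldlr (ENSMUSG00000024924.14, chr19:27216484-27254231, plus strand) stood at 32.3 and 28.1 TPM in homozygous libraries, at 27.9 and 27.5 TPM in heterozygous libraries and at 29.8 and 29.0 TPM in wild type libraries. Homozygous replicate 2 lay below both wild type libraries and homozygous replicate 1 above them. Its difference was 0.03 for homozygous against wild type (95% interval -0.25 to 0.32, limma adjusted p = 0.895) and -0.08 for heterozygous against wild type (95% interval -0.37 to 0.20, limma adjusted p = 0.765). For homozygous against wild type it ran from -0.06 without homozygous replicate 1 to 0.13 without homozygous replicate 2. Both intervals lie above the differences measured for Lrp8 in the same comparisons, which leaves out the error of Lrp8. For heterozygous against wild type the intervals of the 2 genes overlapped, that of Lrp8 being -0.735 to -0.192.

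Lrp8 exceeded Vldlr by a factor of 2.91 and 3.37 in homozygous, 3.78 and 3.55 in heterozygous, and 5.17 and 4.4 in wild type libraries. The 3 genotypes did not overlap in this ratio. The nearest libraries of the floxed genotypes were at 3.37 and 3.55, and how many gene pairs show such an order was not counted.

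**Figure D4:**
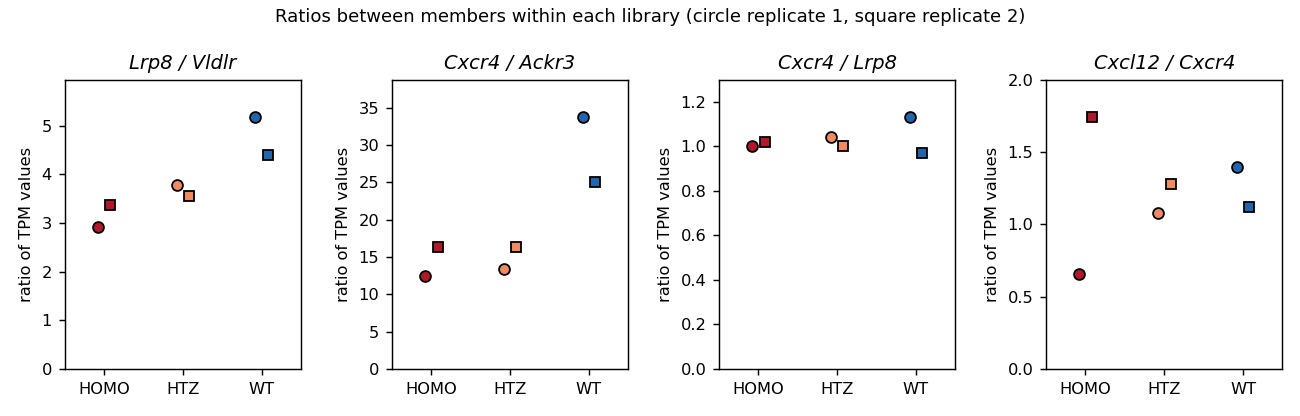
Ratios of TPM values between pairs of the 7 genes within each library (vertical axes, linear and starting at 0), for homozygous (HOMO), heterozygous (HTZ) and wild type (WT) libraries, with a circle for replicate 1 and a square for replicate 2. Lrp8 over Vldlr and Cxcr4 over Ackr3 are lower in all 4 floxed libraries than in both wild type ones, Cxcr4 over Lrp8 stays between 0.971 and 1.13, and Cxcl12 over Cxcr4 ranges from 0.656 to 1.74.

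Dab1 (ENSMUSG00000028519.16, chr4:103619359-104744844, plus strand) passes the signal of both receptors into the cell. It stood at 77.3 and 72.3 TPM in homozygous libraries, at 70.0 and 81.8 TPM in heterozygous libraries and at 96.5 and 87.2 TPM in wild type libraries. All floxed libraries were lower than both wild type ones, and the floxed genotypes overlapped. The difference was -0.29 for homozygous (SE 0.11, limma adjusted p = 0.253) and -0.27 for heterozygous against wild type (SE 0.11, limma adjusted p = 0.355). Without heterozygous replicate 1, which had the most Ttr, the second of these was -0.16, and without heterozygous replicate 2 it was -0.38. Dab1 divided by the sum of both receptors stayed between 0.525 and 0.654 in the 6 libraries. This ratio was 0.613 and 0.588 in homozygous, 0.525 and 0.654 in heterozygous, and 0.525 and 0.556 in wild type libraries. Both homozygous libraries lay above both wild type ones, and heterozygous libraries overlapped both genotypes. The ratio was not tested.

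On the chemokine side, Cxcl12 (ENSMUSG00000061353.11, chr6:117168535-117181367, plus strand) varied widely within genotypes. It stood at 61.5 and 169 TPM in homozygous libraries, at 118 and 125 TPM in heterozygous libraries and at 243 and 138 TPM in wild type libraries. Homozygous replicate 1 was the lowest library and homozygous replicate 2 lay between the wild type libraries. The difference was -0.84 for homozygous against wild type (SE 0.46, limma adjusted p = 0.368), and it was -0.12 without homozygous replicate 1, -1.56 without homozygous replicate 2 and -0.44 without wild type replicate 1. For heterozygous against wild type it was -0.59 (SE 0.46, limma adjusted p = 0.571), and it was -0.18 without wild type replicate 1 and -0.99 without wild type replicate 2.

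Markers of the tissues that make Cxcl12 also varied within genotypes. Meninges markers, 12 in number with 10 tested, summed to 49.5 and 321 TPM in homozygous, 115 and 113 TPM in heterozygous, and 170 and 65.7 TPM in wild type libraries. Dcn, the fibroblast proteoglycan decorin, led this list, at 17.3 and 68.2 TPM in homozygous, 26.7 and 26.0 TPM in heterozygous, and 39.3 and 15.7 TPM in wild type libraries. In homozygous and in wild type tissue, the library with more Cxcl12 was also the one with more meningeal RNA. Across genotypes the order differed: Cxcl12 divided by the meninges sum was 1.24 and 0.525 in homozygous, 1.03 and 1.11 in heterozygous, and 1.43 and 2.11 in wild type libraries, lower in all 4 floxed libraries than in both wild type ones. No test was run on this ratio. Endothelial markers followed the same order within homozygous and within wild type tissue, with sums of 228 and 388 TPM in homozygous, 283 and 297 TPM in heterozygous, and 324 and 245.5 TPM in wild type libraries. Mural cell markers summed to 115.5 and 193 TPM in homozygous, 133 and 166 TPM in heterozygous, and 181.5 and 133 TPM in wild type libraries. None of these 3 lists had a marker at 0 in every library, and limma called 0 of their members. The Cajal-Retzius marker sum given above, of cells that also make Cxcl12, was lower in all 4 floxed libraries than in both wild type ones. Within each genotype, the library with more Cxcl12 was also the one with the higher Cajal-Retzius sum. The part of any of these cell types in the Cxcl12 values was not tested.

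Cxcr4 (ENSMUSG00000045382.6, chr1:128588199-128592293, minus strand), the signalling receptor, stood at 93.8 and 97.0 TPM in homozygous libraries, at 110 and 98.0 TPM in heterozygous libraries and at 174 and 124 TPM in wild type libraries. As for Lrp8, the 3 genotypes did not overlap and homozygous was lowest. Here too the step between the floxed genotypes was small, 97.0 TPM in homozygous replicate 2 against 98.0 TPM in heterozygous replicate 2. The difference was -0.62 for homozygous (SE 0.16, 95% interval -1.01 to -0.23, limma adjusted p = 0.145) and -0.50 for heterozygous against wild type (SE 0.16, limma adjusted p = 0.307). The trend was -0.31 per floxed allele (SE 0.09, limma adjusted p = 0.142). Without wild type replicate 1 the differences were -0.38 for homozygous and -0.26 for heterozygous, and the trend was -0.18. Without wild type replicate 2 the differences were -0.86 and -0.74, and the trend was -0.39.

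Cxcr4 is carried by migrating precursors, among them Tbr2-positive intermediate progenitors. Intermediate progenitor markers, 10 in number with 9 tested and 0 called by limma, summed to 589 and 662 TPM in homozygous, 611 and 603 TPM in heterozygous, and 1105 and 715 TPM in wild type libraries. Cxcr4 divided by that sum was 0.159 and 0.147 in homozygous, 0.179 and 0.162 in heterozygous, and 0.158 and 0.173 in wild type libraries. In this ratio wild type libraries overlapped both floxed genotypes, and both homozygous libraries lay below both heterozygous ones. It was not tested. Neurod1, a transcription factor of granule cell differentiation, led the list, at 173 and 161 TPM in homozygous, 157 and 182 TPM in heterozygous, and 392 and 234 TPM in wild type libraries. Of the 10 markers, 4 lay below both wild type libraries in all 4 floxed ones, beside 21% of all tested genes. The part of these cells, or of the granule lineage, in the Cxcr4 difference was not tested.

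Ackr3 (ENSMUSG00000044337.5, chr1:90203980-90216751, plus strand), the scavenging receptor, was higher in floxed libraries, where Cxcr4 was lower. It stood at 7.53 and 5.91 TPM in homozygous libraries, at 8.19 and 5.97 TPM in heterozygous libraries and at 5.17 and 4.95 TPM in wild type libraries. All floxed libraries were higher than both wild type ones, replicate 1 of each floxed genotype more so. The difference was 0.34 for homozygous (SE 0.22, limma adjusted p = 0.429) and 0.40 for heterozygous against wild type (SE 0.22, limma adjusted p = 0.443). It was 0.19 without homozygous replicate 1 and 0.20 without heterozygous replicate 1, the libraries with the most Ttr. Without homozygous replicate 2 it was 0.49, and without heterozygous replicate 2 it was 0.60. Cxcr4 exceeded Ackr3 by a factor of 12.5 and 16.4 in homozygous, 13.4 and 16.4 in heterozygous, and 33.7 and 25 in wild type libraries. The floxed libraries were all below both wild type ones in this ratio, which was not tested.

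Ratios of ligand to receptor varied within genotypes. Reln divided by the sum of its receptors was 1.48 and 2.13 in homozygous, 1.47 and 1.67 in heterozygous, and 2.89 and 1.7 in wild type libraries. Cxcl12 divided by Cxcr4 was 0.656 and 1.74 in homozygous, 1.08 and 1.28 in heterozygous, and 1.4 and 1.12 in wild type libraries. All genotypes overlapped in Cxcl12 over Cxcr4. For Reln over its receptors, homozygous libraries overlapped both other genotypes. Both heterozygous libraries lay below both wild type ones, narrowly so at 1.67 against 1.7. Neither ratio was tested.

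Between the floxed genotypes, the differences ran from -0.25 for Cxcl12 (SE 0.46) to 0.13 for Reln (SE 0.31), and limma's adjusted p was 1 for each of the 7 genes. Lrp8 differed by -0.10 (95% interval -0.38 to 0.17) and Cxcr4 by -0.12 (95% interval -0.51 to 0.27). Vldlr differed by 0.12 (95% interval -0.17 to 0.40).

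Likeness of profiles was measured as the root mean square distance between log2(TPM + 1) values over the 6 libraries, each gene centred on its own mean. Among the 7 genes, Lrp8 and Cxcr4 were the nearest pair, at 0.07, and Cxcl12 and Ackr3 the farthest, at 0.77. Over all tested genes of at least 5 TPM, the nearest to Lrp8 were Clasp1, Fgfr1 and Cep85l, at distances of 0.02 to 0.04, and the nearest to Cxcr4 were Mcm7, Sun2 and Phf21b, at 0.04 to 0.05. The medians over all such genes were 0.25 for Lrp8 and 0.29 for Cxcr4. Reln was nearest to P2rx5, Ier5 and Nhlh2, at 0.14 to 0.15, Nhlh2 being one of the Cajal-Retzius markers. The nearest to Cxcl12 were Col5a2 at 0.22, Aplnr at 0.23 and Baz1a at 0.25. Such distances depend on how much a gene itself varies, so they cannot be compared between members. The root mean square of the centred values was 0.593 for Cxcl12 and 0.0751 for Vldlr, and the median distances were 0.577 and 0.162. Dab1 was nearest to Rtn1, Ctps and Gsk3b, at 0.03 to 0.04, Vldlr to Cdk9, Nabp2 and Efr3a, at 0.03 for each, and Ackr3 to Ift74, Rilpl2 and Wdr35, at 0.04 for each. With 6 libraries and many genes, close profiles are found for almost any gene, and these distances are a description.

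Other genes of the reelin pathway were taken from a list of 38, all of which were tested. Limma called 0 of them in any comparison. For homozygous against wild type 21 were lower and 17 higher, with a median of -0.03, and 17 were lower without overlap and 6 higher without overlap, beside 30.7% and 23.6% of all tested genes. Apoe, the lipid carrier that shares these receptors as a ligand, had the largest difference, at 2115 and 2285 TPM in homozygous, 2000 and 1666 TPM in heterozygous, and 830 and 1107 TPM in wild type libraries (1.20, SE 0.16, limma adjusted p = 0.061 for homozygous and 0.93, SE 0.16, limma adjusted p = 0.157 for heterozygous against wild type). Apoe is also made by microglia, whose marker sum was higher in the floxed libraries as given above, and their part in its difference was not tested.

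By p, the next genes of the reelin list for homozygous against wild type were Cdk5r1, the activator p35 of the kinase CDK5, at 203 and 174 TPM in homozygous against 261 and 254 TPM in wild type libraries, and Pik3r1, a regulatory subunit of phosphoinositide 3-kinase, at 62.8 and 51.8 TPM against 101 and 75.8 TPM. Their limma adjusted p were 0.117 and 0.149. In heterozygous against wild type libraries, 21 genes were lower and 17 higher, with a median of -0.08, and 18 were lower and 6 higher without overlap, beside 28.9% and 17.1% of all tested genes. Limk1, a kinase that acts on the actin-severing protein cofilin, stood at 59.1 and 67.5 TPM in heterozygous against 98.8 and 83.3 TPM in wild type libraries (limma adjusted p = 0.255). Akt1, a kinase downstream of phosphoinositide 3-kinase, stood at 249 and 237 TPM in heterozygous against 303 and 283 TPM in wild type libraries (limma adjusted p = 0.301). For homozygous against heterozygous the median was -0.02, the smallest p belonged to Cdk5r1, Apoe and Pik3r1, and their limma adjusted p was 1.

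Of a list of 30 genes around Cxcl12 signalling, 27 were tested, and Dpp4, Adm and Cd74 were below the filter. Limma called 0 of the 27 in any comparison. For homozygous against wild type 16 were lower and 11 higher, with a median of -0.06, and 12 were lower and 2 higher without overlap, beside 30.7% and 23.6% of all tested genes. Gng2, a G protein gamma subunit, stood at 464 and 394 TPM in homozygous against 618 and 633 TPM in wild type libraries (-0.55, SE 0.11, limma adjusted p = 0.093). Vav2, a guanine nucleotide exchange factor, stood at 33.2 and 27.2 TPM in homozygous, 29.1 and 30.9 TPM in heterozygous, and 47.0 and 41.2 TPM in wild type libraries (limma adjusted p = 0.14 for homozygous and 0.255 for heterozygous against wild type). Pak1, a kinase activated by Rac1 and Cdc42, stood at 63.5 and 60.3 TPM in homozygous against 77.3 and 79.9 TPM in wild type libraries (limma adjusted p = 0.146).

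In heterozygous libraries, 19 of the 27 were lower and 8 higher than in wild type, with a median of -0.07, and 10 were lower and 3 higher without overlap, beside 28.9% and 17.1% of all tested genes. Stat3, a transcription factor downstream of JAK kinases, stood at 50.6 and 53.1 TPM in heterozygous against 83.5 and 61.7 TPM in wild type libraries. Ptk2, focal adhesion kinase, stood at 52.9 and 57.3 TPM in heterozygous against 76.1 and 65.1 TPM in wild type libraries. Both had a limma adjusted p of 0.312. Between the floxed genotypes the median was -0.03 and the smallest p belonged to Ptk2b, Grk3 and Gng2, each with a limma adjusted p of 1. Ptk2b, a kinase related to focal adhesion kinase, stood at 48.0 and 73.3 TPM in homozygous against 26.9 and 43.8 TPM in heterozygous libraries, which did not overlap, and 15.3% of all tested genes were higher without overlap in this comparison.

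**Figure D5:**
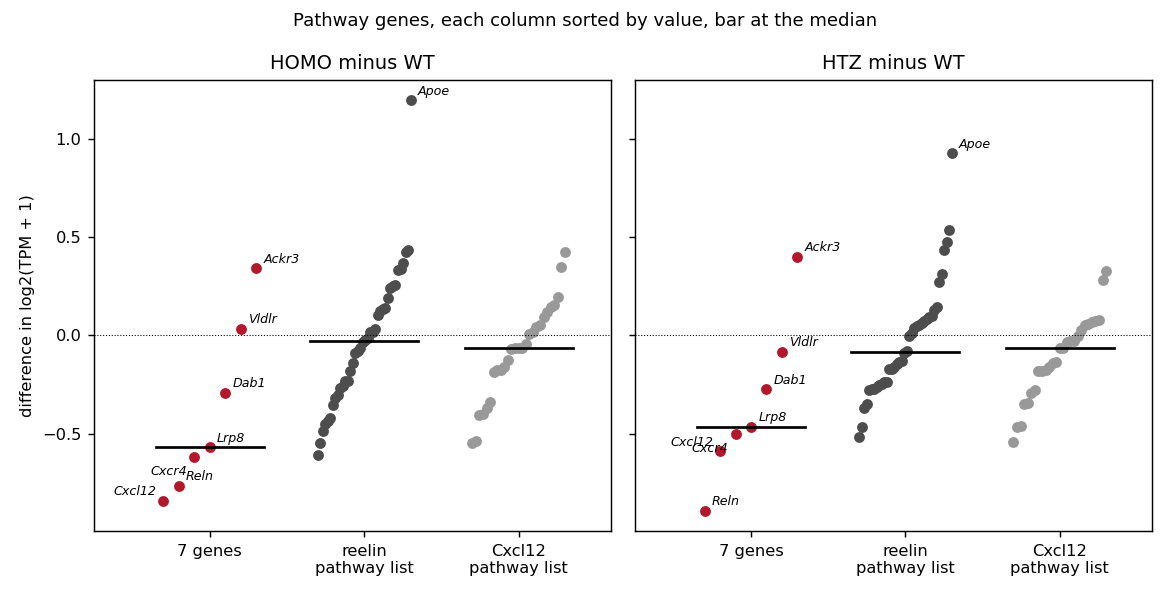
Difference in log2(TPM + 1) for homozygous minus wild type (left) and heterozygous minus wild type (right), 1 point per gene, for the 7 genes and for the tested members of the reelin (38) and Cxcl12 (27) pathway lists, sorted by value, with a bar at each median. The list medians lie between -0.03 and -0.08 and those of the 7 genes at -0.57 and -0.46, and Apoe stands highest in both panels. Both panels share the wild type libraries.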

How the data were processed

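RNA was measured in 6 libraries, 2 for each of 3 genotypes, grouped by the genotype in their titles. The authors deposited TPM values for 35274 genes. TopHat 2.0.11 (to mm10) and Cufflinks 2.2.1 are the tools in the labels' design text, whereas the submitters' processing notes name FastQC and RSEM without versions. TPM keeps no read depth, so depth per library is unknown and no counting interval was computed. TPM values share a fixed total, so an abundant transcript in 1 library lowers all others there.

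The 14518 genes that averaged 1 TPM or more were fitted as log2(TPM + 1), a scale that understates changes of low genes, with limma 3.58.1 in R 4.3.3 (a term per genotype or the number of floxed alleles, eBayes with a trend) over all 6 libraries. P-values were two-sided and adjusted by Benjamini-Hochberg over all tested genes at 0.05. Intervals are at 95% and errors are limma's SE. The fit was tested on simulated data. Alternatives covered pseudocounts, filters, scaling (a trimmed mean of M values, TMM, or the median), the variance prior, the replicate block and libraries left out.

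Coordinates are those of GENCODE vM21 (GRCm38), in which all 7 identifiers were found. The members and lists were chosen with earlier results of these data known. The 7 genes and Sox11 are always named. Of each pathway list the 3 smallest p per pairwise comparison are named, and for each of the 7 genes the 3 nearest profiles among genes of at least 5 TPM, leaving out predicted genes, pseudogenes and mitochondrial transcripts. Other genes are the most abundant markers of a list or were chosen after their values were seen. No library pair of a genotype held the same values for more than 0.365% of tested genes.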

Additional observations from a re-analysis of the deposited data

How the results depend on the processing

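Of the 7 genes, 0 were called by limma under any alternative but one. With the replicate block, Lrp8 was called for homozygous against wild type (-0.57, limma adjusted p = 0.0491), 1 of the 7 genes. Deviations of same-numbered libraries correlated at 0.345, -0.0882 and 0.212 across genes, so the numbers were not taken to pair the libraries. Over all 16 alternatives the limma adjusted p of Lrp8 in this comparison ran from 0.0491 to 0.468 and that of Cxcr4 from 0.0747 to 0.499. Reln, Dab1, Lrp8, Cxcl12, Cxcr4 and Ackr3 kept their direction against wild type in both floxed genotypes under every alternative run, as did Vldlr for heterozygous. Most alternatives could not have changed a direction. Filters, the variance prior, the replicate block and fits of only the compared genotypes leave each difference as it was. Where libraries do not overlap, neither a pseudocount nor leaving out libraries can reverse the sign. Of these differences, only that of Cxcl12 for homozygous against wild type came from overlapping libraries, and it ran from -1.56 to -0.121.

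Some directions turned. Leaving out 1 library moved the Vldlr difference of homozygous against wild type between -0.0622 (without homozygous replicate 1) and 0.131, and its trend between -0.0384 and 0.0442. Dropping the 2 libraries richest in Ttr gave -0.0622 and -0.0367 for Vldlr, and 0.425 for Cxcl12 in homozygous against heterozygous. In that last comparison, leaving out 1 library gave ranges of -0.114 to 0.37 for Reln, -0.129 to 0.0926 for Dab1 (0.0292 without homozygous replicate 2), -0.971 to 0.468 for Cxcl12 and -0.259 to 0.139 for Ackr3 (0.0919 without homozygous replicate 2).

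Counts over all genes moved far more. For homozygous against wild type 6 genes were called, and 149 and 75 with pseudocounts of 0.1 and 0.5, 3 with no filter, 393 with only these genotypes, 283 with the replicate block and 491 without those richest in Ttr. In heterozygous against wild type 5 were called, and 49 with a pseudocount of 0.1, 1 with no filter, 9 with the replicate block and 152 without those richest in Ttr. For homozygous against heterozygous 2 were called, 1 with no filter or with eBayes without a trend, and 12 without those richest in Ttr. For the trend 2 were called, 0 with no filter, 1 with eBayes without a trend, 6 with the replicate block and 252 without those richest in Ttr. Leaving out 1 library gave 3 to 397 calls for homozygous and 3 to 397 for heterozygous against wild type, 1 to 5 between the floxed genotypes and 0 to 554 for the trend. Sox11 for homozygous against wild type ran from -4.97 to -4.42 in these fits and was called in each. The cause of these shifts was not tested. A genotype left with 1 library is assumed to vary like the others. With 2 libraries per genotype and unknown depth, differences of the size seen for Dab1 or Ackr3 did not pass the test. Larger ones did not pass in the main fit either. Against wild type these were -0.84 for Cxcl12 in homozygous (limma adjusted p = 0.368) and -0.89 for Reln in heterozygous libraries (limma adjusted p = 0.317). Sox11 itself, at -1.56 for heterozygous against wild type, had a limma adjusted p of 0.105.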
